A study of Mus musculus with 8 samples.

Results

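The genes described here mark the glial and progenitor cells of the cortex, and they were measured in cultures labelled as neurons. They are 31 genes of 23830 in the gene table: 12 astrocyte genes, 9 genes of radial glia and progenitors, 5 genes of oligodendrocyte precursors and 5 myelin genes. They were picked by name as cell type genes and not by how they moved, though earlier results of these data were known. A gene was tested when it reached 1 FPKM (sequenced fragments scaled to transcript length and library size) in at least 2 libraries. This left 13089 genes, 30 of the 31 among them. Mag, a myelin adhesion glycoprotein, did not reach that level.

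RNA was sequenced from mouse cortical cultures prepared at embryonic day 16.5 and kept 6 days in vitro. Rem2 encodes a GTPase of the RGK family, which is known to restrain voltage-gated calcium channels. There were 4 groups of 2 biological replicates: Control and Rem2 KO, each without and with 55 mM KCl for 4 h, a depolarising concentration. All 8 libraries, the controls included, came from cultures silenced overnight from day 5 with 1 µM tetrodotoxin, a sodium channel blocker. The genotype field reads Rem2 flx/flx (floxed alleles) in all 8 libraries, so the groups rest on the library titles. The labels do not state the source of Cre, the deleted exons or how many animals were pooled.

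Astrocytes clear glutamate, supply metabolites and couple through gap junctions. Radial glia are the stem cells of the embryonic cortex. They produce neurons first and astrocytes and oligodendrocyte precursors later, and Notch signalling is known to hold them in the progenitor state. Precursors of oligodendrocytes divide and carry the PDGF alpha receptor, and they switch on myelin genes as they mature.

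In the Notch pathway the cleaved receptor joins the DNA-binding protein RBPJ, and Hes1 and Hes5 are its classic target genes. Fabp7, a fatty acid binding protein of radial glia, and Gfap, the astrocyte intermediate filament, are also known to respond to Notch. The 250 bases before the transcription starts of Gfap and Fabp7 are shown because Gfap differed between the replicate numbers and Fabp7 did not pass that test, as described further on. They are RefSeq sequences of GRCm38.p6, at chr11:102897201-102897450 on the minus strand for Gfap and chr10:57784673-57784922 on the plus strand for Fabp7. Each is written in the direction of its gene. Capitals mark the core of the RBPJ motif, TGGGAA, or its reverse complement, TTCCCA.
Gfap: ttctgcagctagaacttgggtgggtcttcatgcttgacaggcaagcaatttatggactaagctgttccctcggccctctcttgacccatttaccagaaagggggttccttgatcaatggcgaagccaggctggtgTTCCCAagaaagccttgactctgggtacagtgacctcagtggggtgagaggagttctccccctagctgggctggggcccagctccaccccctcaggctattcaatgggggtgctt
Fabp7: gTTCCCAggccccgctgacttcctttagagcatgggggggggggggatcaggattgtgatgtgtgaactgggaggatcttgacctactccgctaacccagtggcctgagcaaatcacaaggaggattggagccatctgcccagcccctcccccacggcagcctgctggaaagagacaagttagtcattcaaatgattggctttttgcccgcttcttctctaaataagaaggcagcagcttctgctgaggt
Gfap held 1 match, in reverse orientation, at 115 to 110 bases before its start. Fabp7 held 1 match, in reverse orientation, at 249 to 244 bases before its start. Of 32851 mouse promoters of this length 7094 held a match on either strand, or 21.6%. The 31 genes had 36 promoters at hand, for 26 of the genes, and 13 of the 36 had a match (36.1%). A match is a run of letters and shows no binding.

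The 8 libraries differed more by replicate number than by genotype. Principal component 1 held 49.0% of the variance and component 2 held 32.5%, and which of replicate number and KCl each followed was not tested. Libraries of like number and KCl state but different genotype correlated across genes at 0.979 to 0.982, and the replicates of a group at 0.912 to 0.929. From steps between low values, the libraries numbered 1 held roughly 18.6 to 20.3 M fragments, and those numbered 2 held 35.6 to 42.9 M. Rem2 itself, the targeted gene, was listed in replicate 1 at 6.29 FPKM for Control against 2.13 FPKM for Rem2 KO, and in replicate 2 at 2.54 against 1.70 FPKM. Under KCl these values were 22.5 against 11.7 FPKM and 21.4 against 12.4 FPKM. Rem2 KO was lower in each of these pairs. Neuronal markers were abundant: 17 of 17 were measured, and they summed to 2895 to 3697 FPKM per library. The microtubule protein Map2 was at 234 to 286 FPKM.

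The levels of the 31 genes spanned a wide range. Averaged over the 8 libraries, 8 genes were at 100 FPKM or more, 16 between 10 and 100 FPKM and 7 under 10 FPKM. Fabp7 was the highest at 1313 FPKM, followed by the lipid carrier Apoe at 976 FPKM and the intermediate filament Vim at 464 FPKM. Olig1, a transcription factor of the oligodendrocyte lineage, was next at 213 FPKM. The 12 astrocyte genes summed to 1555 to 2226 FPKM per library and the 9 radial glia genes to 1574 to 2627 FPKM. The 5 precursor genes summed to 288 to 471 FPKM. Myelin genes were low: their sum was 27.4 to 44.4 FPKM, most of it Cnp, and Mag was at 0.0227 to 0.392 FPKM. Astrocyte, radial glia and precursor genes were thus present in cultures labelled as neurons. Of the myelin genes Mag was near 0, while Mbp (6.80 to 10.4 FPKM), Mog (1.57 to 5.54 FPKM) and Cldn11 (1.26 to 2.73 FPKM) were measured in every library.

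**Figure D1:**
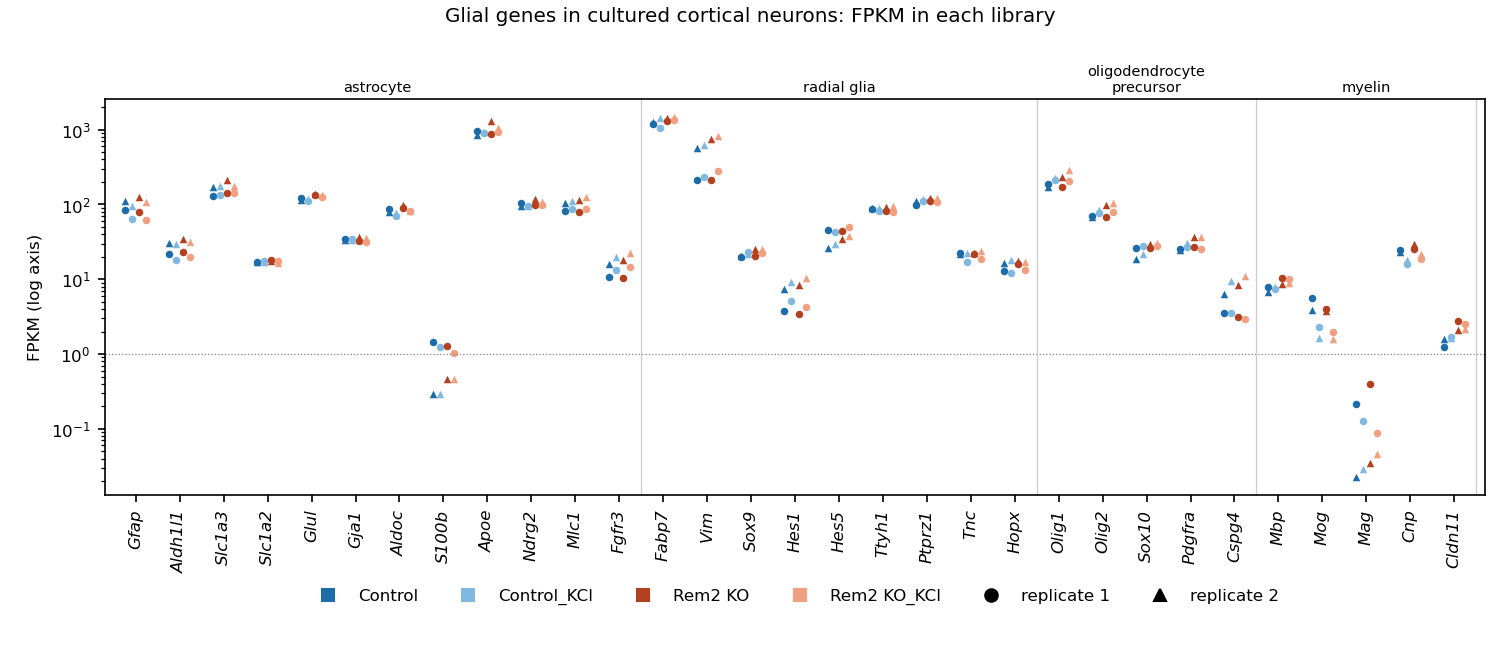
FPKM of the 31 genes in each of the 8 libraries on a log axis, grouped by role, with colour for the group and shape for the replicate number. Fabp7 and Apoe lie highest and Mag lowest, and Vim, Hes1 and Cspg4 split by replicate number.

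Values for single genes are given as replicate 1 and then replicate 2, in FPKM, for Control, then Control under KCl, then Rem2 KO and finally Rem2 KO under KCl. Differences are of log2(FPKM + 1), a scale on which low genes change less than they do in FPKM. Tests are limma's moderated test with Benjamini-Hochberg adjustment over the 13089 genes. Same-numbered libraries varied together, so tests between KCl states and genotypes were run without and with the replicate number as a block, and the difference between the numbers comes from the fit with the block. In bulk RNA, fewer cells of a type and less RNA per cell cannot be told apart.

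The replicate numbers differed in part of the 30 tested genes, a share near that of all tested genes. With the block, 12 of the 30 tested genes were higher in the libraries numbered 2 and 3 were lower. Among all tested genes 51.6% differed between the numbers, 40.3% higher and 11.2% lower. The median difference was 0.15 for the 30 genes and 0.14 for all tested genes. The list as a whole therefore lay close to the rest of the transcriptome, and single members lay far from it. Under TMM-type scaling 8 of the 30 were higher and 5 lower, beside 45.2% of all genes called (22.5% higher, 22.7% lower). With quantile normalization 11 were higher and 6 lower, beside 45.6% of all genes (22.5% higher, 23.1% lower).

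Vim (chr2:13574311-13582826, mm10), an intermediate filament of radial glia and of activated astrocytes, separated the numbers most. Its levels were 213 and 575, 236 and 627, 210 and 754, and 277 and 819 FPKM. All 4 libraries numbered 2 lay above all 4 numbered 1. The mean level was 2.96 times higher (log2 difference 1.56, SE 0.085, limma adjusted p = 3.58e-05). Hes1 (chr16:30065357-30067796), a Notch-driven repressor, was at 3.71 and 7.37, 5.11 and 9.32, 3.41 and 8.34, and 4.23 and 10.3 FPKM. Its groups by number did not overlap either, with a log2 difference of 0.95 (SE 0.082, limma adjusted p = 0.000252).

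Hes5, the second Notch-driven repressor, went the other way. It was at 45.6 and 26.2, 42.4 and 29.7, 43.8 and 34.2, and 49.8 and 38.5 FPKM. Every library numbered 2 was below every library numbered 1, with a log2 difference of -0.50 (SE 0.079, limma adjusted p = 0.00284). Hes1 was lower than Hes5 in all 8 libraries, and the 2 genes were closest in the libraries numbered 2.

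Fabp7 was at 1194 and 1265, 1045 and 1435, 1299 and 1440, and 1351 and 1476 FPKM. These levels overlapped between the numbers, and the difference did not pass the test (0.20, limma adjusted p = 0.0918). Hopx, a homeodomain protein of radial glia and astrocytes, was at 12.95 and 16.6, 12.1 and 18.2, 15.97 and 17.6, and 13.3 and 17.0 FPKM, a log2 difference of 0.34 (limma adjusted p = 0.00988). It did not pass under TMM-type or quantile scaling.

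Ttyh1, a membrane protein of radial glia, was at 85.8 and 90.8, 82.8 and 90.5, 82.9 and 92.6, and 80.2 and 96.2 FPKM. The phosphatase Ptprz1 was at 97.2 and 110.9, 111.1 and 117.1, 111.9 and 122.9, and 106.5 and 121.5 FPKM. Their small differences of 0.16 (limma adjusted p = 0.0348) and 0.15 (limma adjusted p = 0.036) turned to -0.01 and -0.02 under TMM-type scaling. Sox9, a glial fate transcription factor, and the matrix protein Tnc did not pass, at 20.1 to 25.7 and 16.8 to 23.7 FPKM.

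Among the astrocyte genes, 5 were higher in the libraries numbered 2, S100b was lower and 6 did not pass. Gfap (chr11:102887336-102897200) was at 83.9 and 110.2, 63.1 and 94.2, 79.3 and 126.3, and 61.4 and 107.1 FPKM. Replicate 2 was the higher one in all 4 groups (log2 difference 0.60, SE 0.071, limma adjusted p = 0.000877). Aldh1l1, a folate enzyme and general astrocyte marker, was at 21.9 and 30.5, 18.3 and 29.5, 23.4 and 34.7, and 19.8 and 31.8 FPKM. Its log2 difference was 0.58 (SE 0.054, limma adjusted p = 0.000329), and no library numbered 1 reached a library numbered 2. The glutamate transporter Slc1a3 was at 131 and 170.3, 133 and 176, 143 and 211, and 141 and 177 FPKM, with a log2 difference of 0.42 (limma adjusted p = 0.00145).

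Fgfr3 (chr5:33721724-33737068), an FGF receptor of the astrocyte lineage, was at 10.8 and 16.2, 13.2 and 19.7, 10.2 and 18.4, and 14.7 and 22.7 FPKM (log2 difference 0.62, limma adjusted p = 0.000423). Mlc1, a membrane protein of astrocyte endfeet, was at 81.6 and 103.6, 85.8 and 112.5, 78.4 and 115.3, and 86.6 and 125.5 FPKM (log2 difference 0.45, limma adjusted p = 0.000974). The groups by number did not overlap for either gene. S100b, a calcium-binding protein, was low throughout at 1.45 and 0.295, 1.23 and 0.295, 1.26 and 0.461, and 1.03 and 0.471 FPKM. It was lower in all libraries numbered 2 (log2 difference -0.70, limma adjusted p = 0.00208). S100b reached 1 FPKM only in the libraries numbered 1, so the filter itself favoured a difference in this direction. Its place among the lower genes is therefore no independent support for one.

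Apoe was at 948 and 855, 911 and 930, 879 and 1310, and 938 and 1040 FPKM. Of its 8 libraries, Rem2 KO replicate 2 stood highest, and the numbers did not differ by the test (limma adjusted p = 0.329). The other astrocyte genes that did not pass were the second glutamate transporter Slc1a2 (16.5 to 17.8 FPKM), glutamine synthetase Glul (112 to 139 FPKM), the gap junction protein Gja1 (31.6 to 36.5 FPKM), the glycolytic enzyme Aldoc (69.6 to 99.1 FPKM) and Ndrg2 (94.4 to 117 FPKM). Slc1a2 was the steadiest of the 31 genes in these values, and under TMM-type and quantile scaling it was called lower in the libraries numbered 2.

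The precursor genes split. Cspg4, the NG2 proteoglycan of oligodendrocyte precursors and pericytes, was at 3.54 and 6.41, 3.53 and 9.55, 3.12 and 8.33, and 2.92 and 11.1 FPKM. All libraries numbered 2 lay above all numbered 1, with a log2 difference of 1.18 (SE 0.14, limma adjusted p = 0.000903). Pdgfra, the PDGF alpha receptor, was at 25.4 and 24.8, 26.9 and 30.7, 27.1 and 36.2, and 25.8 and 36.2 FPKM. Its difference of 0.26 just passed (limma adjusted p = 0.0482) and rested on 3 of the 4 groups, since Control replicate 2 was below replicate 1. Pdgfra did not pass under either scaling.

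Olig1 was at 189 and 170.7, 214 and 224, 171 and 235, and 206 and 289 FPKM, and its partner Olig2 was at 69.7 and 67.9, 77.3 and 84.1, 68.7 and 99.8, and 80.3 and 103.4 FPKM. Neither passed (limma adjusted p = 0.156 and 0.0722), nor did Sox10, a regulator of the whole lineage (limma adjusted p = 0.39). Mog, a myelin glycoprotein, was lower in the libraries numbered 2 by the test (log2 difference -0.25, limma adjusted p = 0.0386), and Mbp, Cnp and Cldn11 did not pass.

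**Figure D2:**
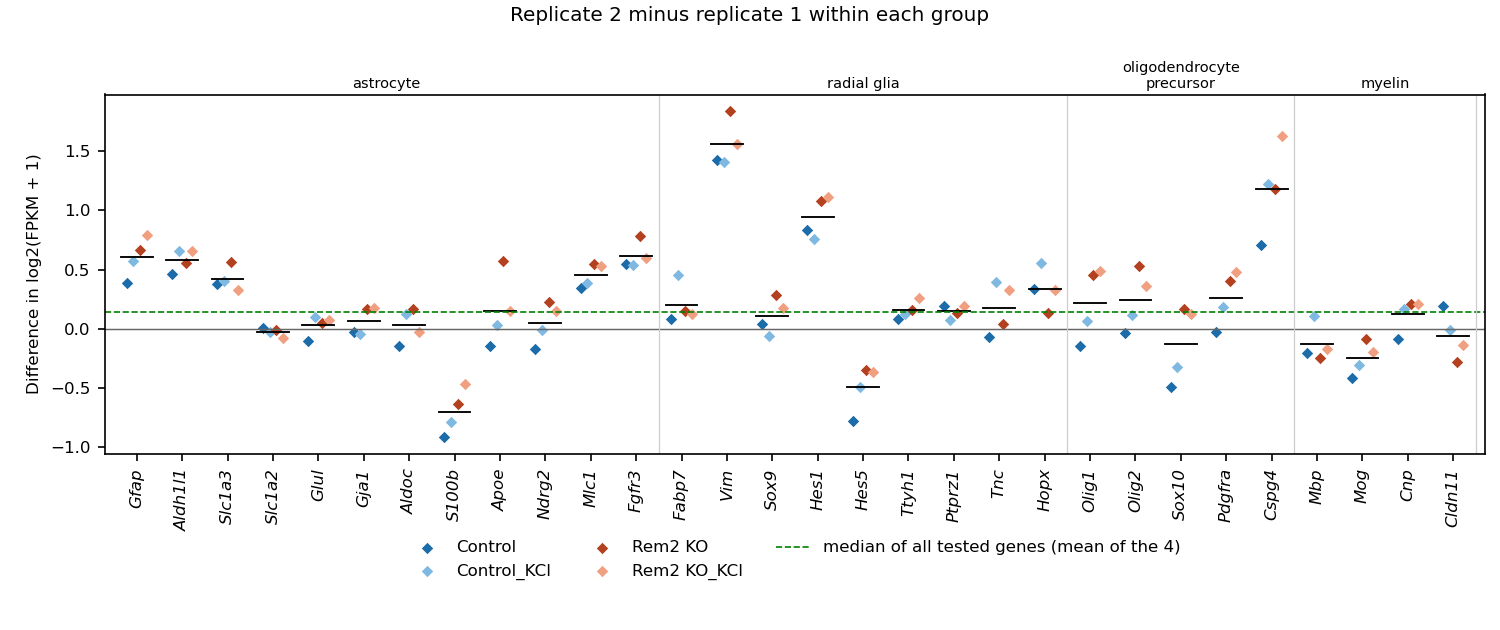
Difference of replicate 2 minus replicate 1 in log2(FPKM + 1) for each of the 30 tested genes, with 1 point per group, a black line at the mean and a dashed line at the median of all tested genes. Vim, Cspg4 and Hes1 lie highest and S100b and Hes5 lowest in all 4 groups.

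The other cell type lists also moved with the replicate number. Their counts stand beside 40.3% of all tested genes higher in the libraries numbered 2 and 11.2% lower. Of 18 tested reactive astrocyte genes 16 were higher and 0 lower, and their summed level was 48.8 to 56.2 FPKM in the libraries numbered 1 and 172 to 231 FPKM in those numbered 2. Examples are the protease inhibitor Serpina3n (log2 difference 1.497), complement C3 (2.65) and the iron carrier Lcn2 (4.67). The copper carrier Cp was listed at 0 in all 4 libraries numbered 1 and was at 10.4 to 14.5 FPKM in those numbered 2. This was the list whose summed levels stood farthest apart in ratio.

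Microglial markers were higher in the libraries numbered 2 in 10 of 10 tested genes, with a sum of 19.8 to 28.5 against 48.2 to 65.3 FPKM. Of these, Aif1, Cx3cr1 and Csf1r reached 1 FPKM only in the libraries numbered 2, so the filter favoured that direction in the count. P2ry12 and Tmem119, markers of resting microglia, were at or under 0.194 and 0.0551 FPKM in all libraries. Proliferation genes were higher in 7 of 8, with a summed level of 163 to 211 against 239 to 282 FPKM. Of 7 endothelial and mural markers 2 were higher and 3 lower. Their sum was 30.7 to 41.9 against 68.3 to 95.2 FPKM, and without the smooth muscle actin Acta2 it was 24.3 to 38.3 against 15.2 to 18.6 FPKM, the opposite order. The endothelial genes Cldn5, Pecam1 and Cdh5 were the 3 lower ones. Fibroblast markers summed to 3.14 to 7.70 against 9.08 to 12.3 FPKM, 4 of 5 higher. The 4 were Col1a1, Col1a2, Col3a1 and Col6a1. They reached 1 FPKM only in the libraries numbered 2, so this count is no independent support for a difference. Neuronal markers summed to 2895 to 3316 against 3192 to 3697 FPKM, 5 higher and 2 lower of 17. The part of these cell types, and of the difference in depth, in the glial differences was not tested.

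In further glial lists some members differed between the numbers and the share called varied. Among 37 other tested astrocyte and radial glia genes 20 were higher in the libraries numbered 2 and 6 lower, and the 4 with the smallest p were the cystine transporter Slc7a11 (1.82), the progenitor filament Nes (1.15), the potassium channel Kcnj10 (1.02) and the matrix protein Sparc (0.98). In the Notch pathway 9 of 23 were higher and 1 lower, a share of higher genes near the 40.3% of all tested genes, among them the receptors Notch1 (0.66) and Notch2 (0.68), the receptor-modifying enzyme Lfng (0.77) and Hes6 (0.48). Of 21 gliogenic signalling genes 13 were higher and 1 lower, with the cytokine receptor subunit Il6st (0.63), its effector Stat3 (0.58), the ligand Bmp7 (0.98) and the receptor Fgfr1 (0.61).

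Oligodendrocyte genes outside the 31 went the opposite way. Of 14 tested 0 were higher and 8 were lower in the libraries numbered 2, and the summed level was 101 to 114 FPKM in the libraries numbered 1 and 59.2 to 75.5 FPKM in those numbered 2. Gpr17, a receptor of newly committed oligodendrocytes, was at 16.5 to 18.8 FPKM in the libraries numbered 1 and 1.54 to 5.57 FPKM in those numbered 2 (log2 difference -2.13). Bcas1, also of that stage, differed by -1.29 and the myelin regulator Myrf by -0.79. Under TMM-type scaling 12 of the 14 were lower and 0 higher.

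**Figure D3:**
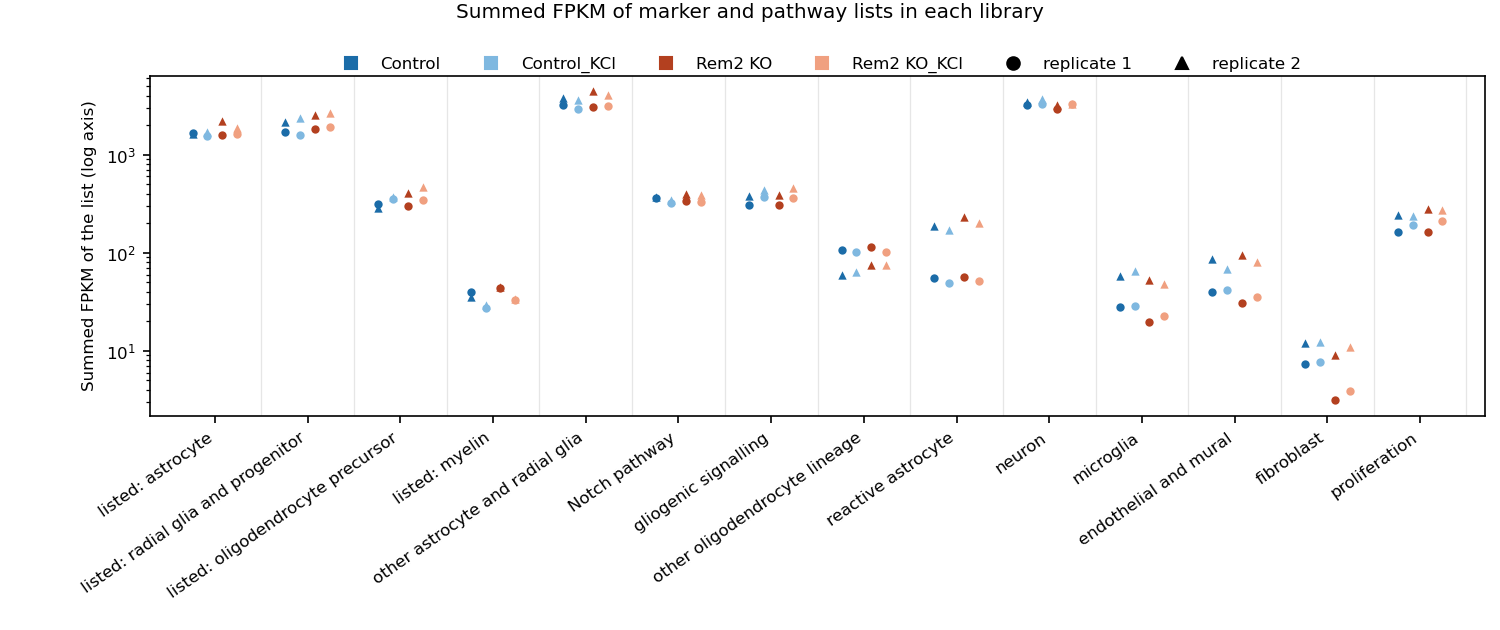
Summed FPKM of each marker and pathway list in each of the 8 libraries on a log axis, with colour for the group and shape for the replicate number. Reactive astrocyte sums are 48.8 to 56.2 FPKM in the libraries numbered 1 and 172 to 231 FPKM in those numbered 2, and other oligodendrocyte sums are lower in the libraries numbered 2.

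Depolarisation moved few of these genes. Without the block, only Mog fell among the 30 genes in Control, beside 17.4% of all tested genes called (12.2% down), and only Mog fell in Rem2 KO, beside 16% of all tested genes (10.3% down). With the block, 2 genes rose and 3 fell in Control, and 48.6% of all genes were called (14.4% up, 34.3% down). In Rem2 KO 1 gene rose and 3 fell with the block, and 47.5% of all genes were called (16.1% up, 31.4% down). The share of the 30 genes called was thus below that of all tested genes in both genotypes.

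Mog (chr17:37010740-37023398) was at 5.54 and 3.92, 2.27 and 1.65, 4.06 and 3.78, and 1.95 and 1.57 FPKM. Every KCl library was below every library without KCl. The log2 difference was -0.95 in Control (SE 0.206, limma adjusted p = 0.0304; with the block SE 0.113, adjusted p = 0.00102) and -0.83 in Rem2 KO (SE 0.206, limma adjusted p = 0.0451; with the block adjusted p = 0.0017). Without the block the call was lost in both genotypes when any 1 of the 8 libraries was left out, with limma adjusted p from 0.0527 to 0.151 (Control) and from 0.0555 to 0.164 (Rem2 KO). With the block it held in all 8 of these fits in each genotype.

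Cnp (chr11:100574909-100591875), an enzyme of non-compact myelin that precursors also make, was at 24.9 and 23.3, 15.97 and 18.1, 25.7 and 29.9, and 18.5 and 21.5 FPKM. Its KCl libraries also lay below all the others. The log2 difference was -0.48 in Control and -0.46 in Rem2 KO, which passed with the block (SE 0.092 in both; limma adjusted p = 0.00608 and 0.0075) and not without it (adjusted p = 0.0531 and 0.0634). Cnp overlaps Dnajc7 on chromosome 11 and the strand setting of the libraries is not stated, so reads of the 2 genes may not be separable. Dnajc7 was at 86.5 to 110 FPKM and differed by less than 0.01 with KCl (with the block, limma adjusted p = 0.978 for Control and 0.995 for Rem2 KO).

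Gfap was lower with KCl in all 4 same-numbered pairs, with log2 differences of -0.31 in Control and -0.30 in Rem2 KO. It passed with the block (limma adjusted p = 0.0402 and 0.0478) and not without it (0.651 and 0.672). With the block and TMM-type scaling it did not pass (-0.14 and -0.17, limma adjusted p = 0.226 and 0.146). The numbers overlap across KCl states: 107.1 FPKM in Rem2 KO with KCl, replicate 2, was above 83.9 FPKM in Control replicate 1.

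Fgfr3 was higher with KCl in all 4 pairs, by 0.27 in Control and 0.39 in Rem2 KO, and passed with the block (limma adjusted p = 0.0403 and 0.0109) but not without it (0.716 and 0.564). Hes1 was higher in all 4 pairs by 0.34 and 0.26. It passed with the block in Control (limma adjusted p = 0.0499) and not in Rem2 KO (0.107).

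Scaling changed how many of these genes rose. KCl shifted the median of all tested genes by -0.14 in Control and -0.12 in Rem2 KO, and TMM-type and quantile scaling moved that median in Control by 0.15 and 0.11. With the block and TMM-type scaling, 11 of the 30 genes rose and 2 fell in Control, and 6 rose and 2 fell in Rem2 KO, beside 48.2% (24.5% up, 23.8% down) and 48.3% (24.1% up, 24.2% down) of all genes called. In both genotypes the genes that rose in that fit included Mlc1, Fgfr3, Vim, Hes1 and Olig1, and the 2 that fell were Mog and Cnp. With the block and quantile normalization 3 rose and 3 fell in Control and 2 rose and 6 fell in Rem2 KO, beside 46.3% (21% up, 25.3% down) and 46.1% (21.2% up, 24.9% down) of all genes.

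By direction alone, 8 of the 30 genes were higher with KCl in all 4 same-numbered pairs: Mlc1, Fgfr3, Vim, Sox9, Hes1, Olig1, Olig2 and Sox10. The share of all genes was 23.7%. Lower in all 4 pairs were Gfap, Aldh1l1, Aldoc, Mog and Cnp, 5 of 30, where the share of all genes was 46.8%. The 5 precursor genes had a median difference of 0.23 in Control and 0.14 in Rem2 KO, and 0 of the 5 passed in either genotype without rescaling. Olig1 differed by 0.29 in Control (limma adjusted p = 0.185 with the block).

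**Figure D4:**
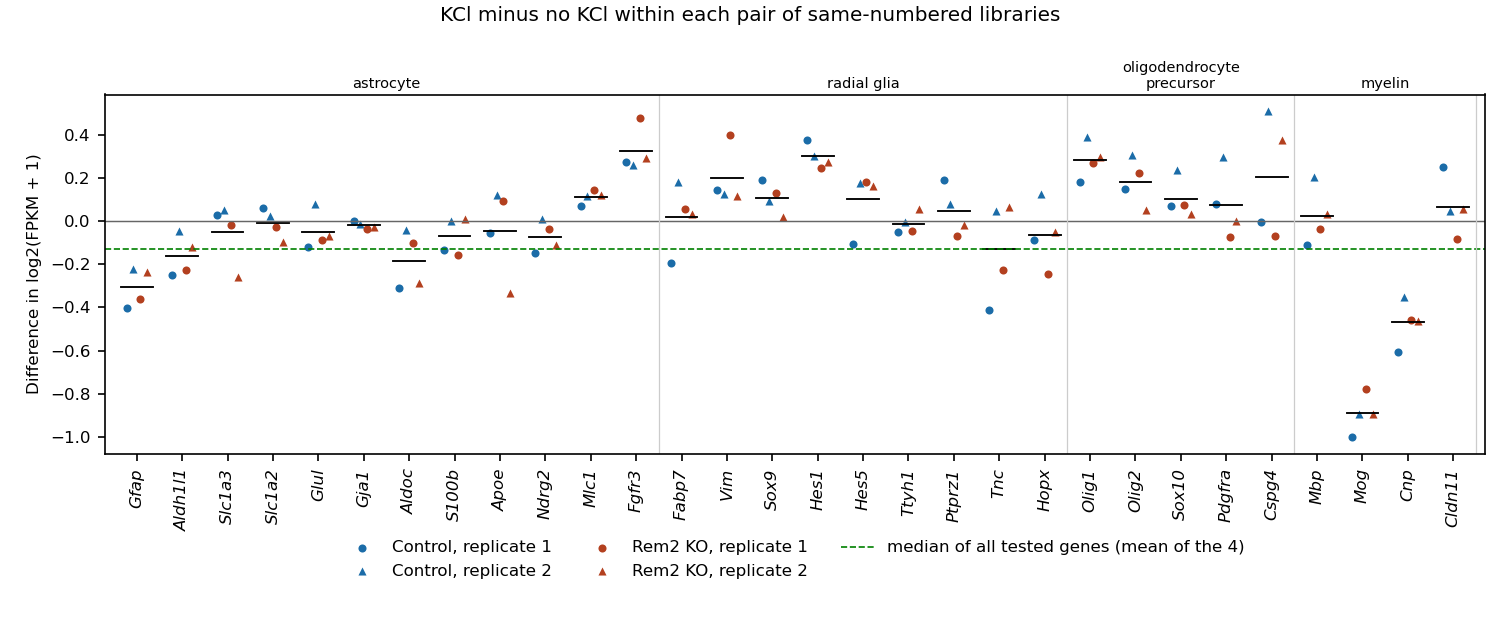
Difference of KCl minus no KCl in log2(FPKM + 1) within each of the 4 same-numbered pairs, for the 30 tested genes, with colour for genotype, shape for replicate number, a black line at the mean and a dashed line at the median of all tested genes. Mog and Cnp lie lowest and Fgfr3 and Hes1 highest, with all 4 pairs on 1 side of 0.

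The pathway lists held genes with larger KCl differences than the 30, while with the block their shares called were close to that of all genes. In the Notch pathway 5 of 23 rose and 7 fell in Control and 6 rose and 4 fell in Rem2 KO, with the block, where 48.6% and 47.5% of all tested genes were called. Without the block 1 rose and 2 fell in Control and 2 rose and 2 fell in Rem2 KO, beside 17.4% and 16% of all genes. The coactivator Maml3 rose from 1.253 and 1.39 to 6.81 and 7.72 FPKM in Control and from 1.32 and 1.80 to 9.21 and 9.48 FPKM in Rem2 KO (log2 differences 1.83 and 2.02). RBPJ's own gene Rbpj rose by 0.64 and 0.61 on the log2 scale, the ubiquitin ligase Dtx1 fell by 0.77 and 0.71, and the ligand Jag2 fell by 0.87 in Control. Of these, Rbpj did not pass without the block (limma adjusted p = 0.181 and 0.204). Hes5, in contrast, did not pass in either genotype.

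Among gliogenic signalling genes 7 of 21 rose and 3 fell in Control, and 6 rose and 3 fell in Rem2 KO, with the block, again near the share of all genes. Without the block Fgfr2 alone of the 21 passed, in both genotypes, a share below the 17.4% and 16% of all tested genes. The FGF receptors Fgfr2 (0.83 and 0.81) and Fgfr1 (0.79 and 0.67) and the transcription factor Stat3 (0.64 and 0.73) rose in both genotypes with the block. With the block, 7 of 37 other astrocyte and radial glia genes rose and 9 fell in Control, beside 48.6% of all tested genes called. In Rem2 KO 6 rose and 7 fell with the block, beside 47.5% of all tested genes. Without the block 0 rose, and 3 fell in Control and 2 in Rem2 KO, beside 17.4% and 16% of all tested genes. The fatty acid enzyme Acsl6 (-0.88 and -0.74), the GABA transporter Slc6a11 (-0.94 and -0.75) and the metallothionein Mt2 (-0.65 and -0.55) fell in both with the block. Acsl6 also passed without it, and Slc6a11 (limma adjusted p = 0.153 and 0.25) and Mt2 (0.387 and 0.475) did not.

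Of the oligodendrocyte genes outside the 31, 0 of 14 rose in either genotype, 2 fell in Control and 3 fell in Rem2 KO with the block, and 0 of 14 passed without it. The sulfatide enzyme Gal3st1 fell by 0.67 and 0.47 on the log2 scale with the block. Of the reactive astrocyte genes 1 of 18 rose and 1 fell in Control, and 2 rose and 1 fell in Rem2 KO, with the block. Both lists were below the 48.6% and 47.5% of all tested genes called in that fit. The one that rose in both was Ptgs2 (1.012 and 0.92), the prostaglandin synthase, which neurons are known to induce as well. Ptgs2 was at 0 to 0.0982 FPKM without KCl and reached 1 FPKM only in libraries with KCl. The filter itself therefore favoured a rise of Ptgs2. Without the block it passed in Control and not in Rem2 KO (limma adjusted p = 0.0393 and 0.0528).

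Genotype changed none of the 30 genes past the threshold. The count was 0 without KCl, with KCl, averaged over both states and for the genotype by KCl interaction, in limma with and without the block. The share of all tested genes called was also small, 0.0229% without KCl, 0.0458% with KCl, 0.00764% averaged and 0.00764% for the interaction, and with the block 0.0306%, 0.0764%, 0.428% and 0.0688%. At an unadjusted p under 0.05 there were 1, 0, 3 and 0 of the 30 genes without the block, beside 1.38%, 1.49%, 2.51% and 0.52% of all tested genes. With the block there were 6, 3, 7 and 0, beside 7.66%, 7.52%, 11.3% and 3.45%. The 95% intervals of the averaged difference, with the block, reached 0.11 to 0.336 to either side (median 0.18). They are intervals of single genes, without adjustment for the 13089 genes tested. Differences smaller than this could not be told from 0 in these libraries. Some larger ones, as for Cldn11 and Mbp below, did not pass after adjustment either.

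The averaged differences were mostly above 0. Their median was 0.12 for the 30 genes and 0.00 for all tested genes. Cldn11, a tight junction protein of myelin, had the smallest p. It was at 1.26 and 1.57, 1.68 and 1.67, 2.73 and 2.07, and 2.52 and 2.20 FPKM, and all Rem2 KO libraries lay above all Control libraries. The averaged log2 difference was 0.41 (95% interval 0.176 to 0.641, limma adjusted p = 0.204 with the block).

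Mbp, myelin basic protein, was at 8.001 and 6.80, 7.32 and 7.98, 10.4 and 8.61, and 10.1 and 8.84 FPKM. Here too the genotypes did not overlap (0.30, 95% interval 0.116 to 0.477, limma adjusted p = 0.232 with the block). Glul, which makes glutamine from glutamate, was at 122 and 114, 112 and 120.1, 135 and 139, and 126 and 133 FPKM, again with no overlap (0.19, limma adjusted p = 0.264 with the block). Cnp differed by 0.21 (limma adjusted p = 0.307 with the block), while Mog differed by -0.15 (adjusted p = 0.549). How many of all tested genes had no overlap between genotypes was not counted. Rem2 KO was higher in all 4 same-numbered pairs in 8.94% of them. The lack of overlap in Cldn11, Mbp and Glul is therefore no result about the listed genes.

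Compared within same-numbered pairs, the genotypes gave different pictures in the 2 replicate numbers. Without KCl, 13 of the 30 genes were higher in Rem2 KO in replicate 1 (median -0.02) and 29 of 30 in replicate 2 (median 0.27). The shares of all tested genes higher in Rem2 KO were 30.6% and 59.1%. With KCl, 17 of 30 were higher in replicate 1 (median 0.03) and 27 of 30 in replicate 2 (median 0.16), beside 48.1% and 62.7% of all genes. Mog was the 1 gene lower in replicate 2 without KCl.

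The count of 13 in replicate 1 without KCl depended on scaling. It was 24 with quantile normalization and 22 with TMM-type scaling, and the median of all genes in that pair was -0.07. The counts of 29, 17 and 27 became 28, 16 and 27 with quantile normalization and 28, 18 and 25 with TMM-type scaling. Past 1.25-fold, 2 of 30 genes were higher and 1 lower in replicate 1 without KCl, and 10 were higher and 0 lower in replicate 2. The shares of all genes past that fold were 2.44% and 5.91% in replicate 1 and 7.4% and 4.38% in replicate 2. With KCl, 3 and 4 genes were higher past that fold in replicates 1 and 2 and 0 lower, beside 4.23% and 4.17% of all genes higher and 5.2% and 3.07% lower.

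The 5 precursor genes showed the widest gap between the pairs. Their median genotype difference was -0.02 and 0.53 without KCl, and -0.05 and 0.30 with KCl, in replicates 1 and 2. Sox10 was at 26.5 and 18.6, 27.9 and 22.1, 26.5 and 29.9, and 27.9 and 30.6 FPKM. Replicate 1 was nearly equal in both genotypes, and in replicate 2 Rem2 KO was higher by 0.66 without KCl and by 0.45 with it. Olig2 differed by -0.02 and 0.55 without KCl and by 0.05 and 0.30 with KCl. Outside the precursor genes, Apoe differed by 0.61 in replicate 2 without KCl and by -0.11 in replicate 1.

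The difference between the replicate numbers was tested as a term added to the model with the block. It passed for 0 of the 30 genes, beside 0.0306% of all tested genes, and the smallest limma adjusted p among the 30 was 0.714. At an unadjusted p under 0.05 there were 7 of 30, beside 6.65% of all tested genes: Sox10, Olig1, Olig2, Pdgfra, Ndrg2, Hes1 and Gja1. The extra genotype difference in replicate 2 was 0.56 for Sox10 (95% interval 0.306 to 0.803), 0.51 for Olig1 (0.212 to 0.809), 0.41 for Olig2 (0.124 to 0.688) and 0.36 for Pdgfra (0.087 to 0.64). Its median was 0.44 over the 5 precursor genes, 0.19 over the 30 genes and 0.08 over all tested genes.

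Higher in Rem2 KO in all 4 pairs were 8 of the 30 genes: Aldh1l1, Slc1a3, Glul, Aldoc, Fabp7, Mbp, Cnp and Cldn11. Among all tested genes 8.94% did so. Only Mog was lower in all 4 pairs, where the share of all genes was 11.3%. In the other glial lists 0 genes passed for the averaged genotype difference with the block, in any of the 5 lists. The median was 0.07 for 37 other astrocyte and radial glia genes, 0.04 for 23 Notch genes, 0.07 for 21 gliogenic genes, 0.14 for 14 other oligodendrocyte genes and 0.15 for 18 reactive astrocyte genes. Microglial markers had a median of -0.19 over 10 genes and proliferation genes of 0.19 over 8, with 0 past the threshold in both. In the neuronal list the synaptic calcium sensor Syt1 (-0.325) and in the fibroblast list the matrix proteoglycan Dcn (-0.963) fell with the block (limma adjusted p = 0.0497 for both), 1 of 17 and 1 of 5 genes, and 0 passed in these lists without it. The part of these cell types in the glial values was not tested.

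**Figure D5:**
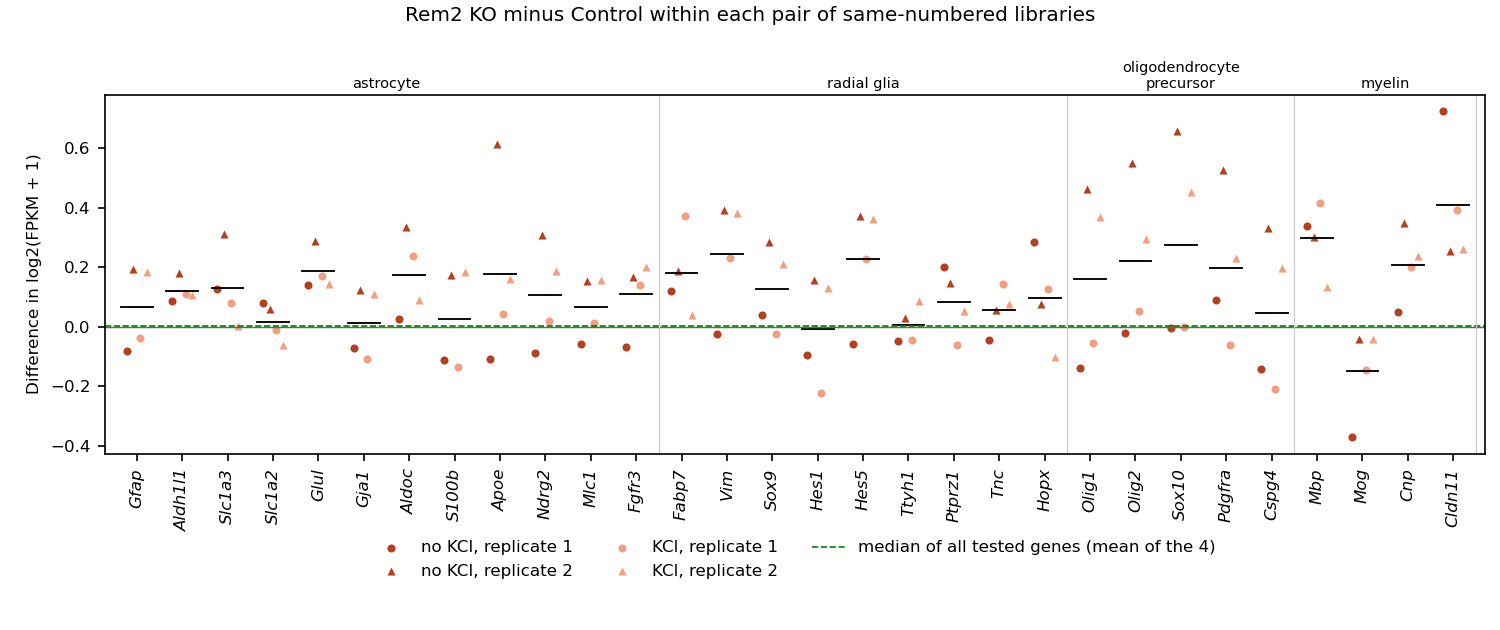
Difference of Rem2 KO minus Control in log2(FPKM + 1) within each of the 4 same-numbered pairs for the 30 tested genes, by role. Points of replicate 2 lie above 0 for 29 of 30 genes without KCl and 27 of 30 with KCl, and those of replicate 1 for 13 and 17.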

How the data were processed

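RNA was sequenced from 8 libraries of cultured mouse cortical neurons, 2 per group. Per the submitters' processing notes, TopHat and Cufflinks were used on mm10, with no versions stated. The authors deposited FPKM per RefSeq transcript and library, so read depth is known only roughly. Of 34353 accessions 34015 were matched to a gene, FPKM were summed per gene, and 302 genes with a repeated accession or missing value, Aqp4 among them, were left out.

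Genes that reached 1 FPKM in 2 or more libraries entered limma 3.58.1 in R 4.3.3 on log2(FPKM + 1) values (moderated test with variance trend, two-sided, adjusted p threshold 0.05). The model had 1 mean per group (4 residual degrees of freedom). Within groups, the deviations from the mean correlated between libraries of one number at 0.708 to 0.783 over all pairs of groups, so the numbers pair the libraries, and the fit with the replicate number as a block has 3 residual degrees of freedom. The genotype by replicate number term leaves 2. The fits without and with the block were run on simulated data with changes in the Control KCl libraries only. Only the KCl effect in Control was scored there, so the genotype, interaction and genotype by replicate number terms were not tested in this way. The labels call the replicates biological and give no culture or litter.

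The genes, lists and tests were chosen with earlier results of these data known. Values per library are given for 13 genes set by name and for every gene of the 31 past the threshold; from each other list up to 4 genes with the smallest p were named, and other genes were named after their values were seen. Genes most like each role group are not given, because 51.6% of all tested genes differed between the replicate numbers. Alternatives were no filter or one at 5 FPKM, a pseudocount of 0.1 or 0.5, TMM-type and quantile scaling, the block, no variance trend, the most abundant transcript, only the libraries compared, and leaving out each library. The block with TMM-type scaling, the genotype by replicate number term, scaling of pair counts and the endothelial sum without Acta2 were added after the data were seen. The other lists were other astrocyte and radial glia, Notch pathway, gliogenic signalling, other oligodendrocyte lineage, reactive astrocyte, neuron, microglia, endothelial and mural, fibroblast and proliferation genes.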

Additional observations from a re-analysis of the deposited data

How the results depend on the processing

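Genotype counts were 0 of 30 genes in every alternative run, for each KCl state, the average, the interaction and the genotype by replicate number term. The count of genes that differ between replicate numbers was 15 and ranged from 12 to 17 over the settings and from 11 to 16 with the block and 1 library left out.

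The KCl counts depended on the replicate block, which pairs the libraries, and on the scaling used with it. The 1 gene called in Control became 5 with the replicate block, 6 with the block and quantile normalization and 13 with the block and TMM-type scaling. It became 0 with no filter, with TMM-type scaling alone and with only the 4 libraries compared, and 0 to 4 when 1 library was left out without and with the block. The 1 gene called in Rem2 KO became 4 with the replicate block and 8 with either scaling added. It became 0 with no filter, a minimum of 5 FPKM (which removes Mog), TMM-type scaling, the most abundant transcript or only the 4 libraries compared, and 0 to 4 when 1 library was left out. With quantile normalization and no block the gene called was Cnp (limma adjusted p = 0.0361 and 0.0272) and Mog was not (0.223 and 0.296). The cause was not tested.

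With the block, 1 gene in Control was called without Control_KCl replicate 1, 2 without Control replicate 1 or Control_KCl replicate 2, and 3 without Control replicate 2 or either Rem2 KO_KCl library. In Rem2 KO 1 gene was called without Rem2 KO_KCl replicate 1. Without the block, leaving out 1 library leaves a group of 1, assumed to vary like the others, and mixes KCl with replicate number. Leaving out 1 library without the block, Fgfr3 ranged from -0.008 to 0.54 in Control and from -0.007 to 0.778 in Rem2 KO, Hes1 from -0.077 to 0.754 in Control, and Gfap from -0.696 to 0.097 in Rem2 KO. Fgfr3 and Hes1 turned negative in Control without Control replicate 1 (-0.008 and -0.077) and Control_KCl replicate 2 (-0.002 and -0.04), and Fgfr3 in Rem2 KO without Rem2 KO replicate 1. Gfap turned positive without Rem2 KO replicate 2 (0.033) and Rem2 KO_KCl replicate 1. Between replicate numbers, Ttyh1 turned to -0.007 and Ptprz1 to -0.018 under TMM-type scaling. With the block and 1 library left out, Pdgfra, Ttyh1, Ptprz1 and Mog lost their call between the numbers in some fits, and the other 11 genes kept it in all 8. Genes higher in Rem2 KO in replicate 1 without KCl numbered 24 with quantile and 22 with TMM-type scaling instead of 13. The block changed no genotype call.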
